A study of Schistosoma mansoni with 6 samples.

Results

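Protein kinases were taken as every gene of the deposited table with annotated exons whose product name reads serine/threonine kinase, tyrosine kinase, protein kinase or cyclin-dependent kinase, or begins with the word kinase. The FGF receptor genes Smp_175590 (fgfrA) and Smp_157300 (fgfrB) were left out. The rule gave 253 genes of 10770 with exons, of which 245 had enough reads to test. A name match also takes proteins that only bind, regulate or are acted on by a kinase, and the text says so where such a protein is named.

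Protein kinases move a phosphate group from ATP to serine, threonine or tyrosine residues of other proteins, and protein phosphatases remove it. Some sit at the cell surface as receptors, some pass a signal on in cascades such as the MAP kinase cascade, and some, bound to cyclins, drive the cell through division. In schistosomes they act in growth, reproduction and muscle and nerve function, and adult worms keep dividing somatic stem cells.

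RNA came from adult male Schistosoma mansoni, the blood fluke, of the NMRI strain, recovered from mice at 43 days after infection. The irradiated group received 200 Gy of gamma rays from a cobalt source, and the control group a mock exposure. Both groups were then kept in culture for 48 hours and, with head and testes cut off the males, posterior somatic tissue was left for RNA extraction. Each group has 3 libraries, A, B and C, each from a pool of 14 to 18 parasites. Males were parted from females only after culture, and all libraries ran on 1 lane for 100 cycles. Nothing in the labels ties a pool to an infection or a separate culture, so each p-value reflects variation among these 6 pools, part of which may be technical.

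Exonic reads per library numbered 21594259 to 29641087 in the irradiated group and 17577059 to 26858868 in the control group. Muscle, tegument and gut markers were abundant in every library. Of 43 genes listed for the head gland by product name (MEG, micro-exon or venom allergen), 10 had no read and 11 were tested. The list summed to 2410 to 2484 CPM in irradiated and 2381 to 2546 CPM in control libraries. Names alone do not tie these genes to the head, so the sum is no measure of head removal. Stem cell markers (fgfrA, nanos-2 and ago2-1) were called lower in 3 of 3, with a summed level of 14.3 to 20.9 CPM in irradiated and 78.7 to 84.4 CPM in control libraries, and none was at 0. These 3 were chosen with earlier results of these data known, so their fall is no independent finding. CPM is the share of a library's exonic reads that fall on a gene, scaled to a fixed library size, and RPKM also divides by exon length, so that genes can be set against each other. Of 8 tested testis and meiosis genes none was called, with summed levels of 460.0 to 471.8 CPM after irradiation and 481.1 to 497.4 CPM in controls. In bulk tissue, fewer cells of a type and less RNA per cell cannot be told apart.

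After irradiation 12 protein kinases were lower and 2 genes were higher, of 245 tested. A gene was called when the edgeR quasi-likelihood test gave a Benjamini-Hochberg adjusted p under 0.05 over all 8885 tested genes. The share called lower was 4.9% of the kinases, beside 2.49% of all tested genes, and the share called higher was 0.816%, beside 0.619%. With upper-quartile scaling the counts were 11 lower and 4 higher, beside 2.35% and 0.889% of all tested genes. The 12 fell into 6 genes that were down 3.89-fold or more and 6 that were down 1.73-fold or less. Calls of at least 2-fold lower made up 2.45% of the kinases, beside 1.13% of all tested genes, and no kinase was called at least 2-fold higher. The plot of levels in each library shows all 14.

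**Figure D1:**
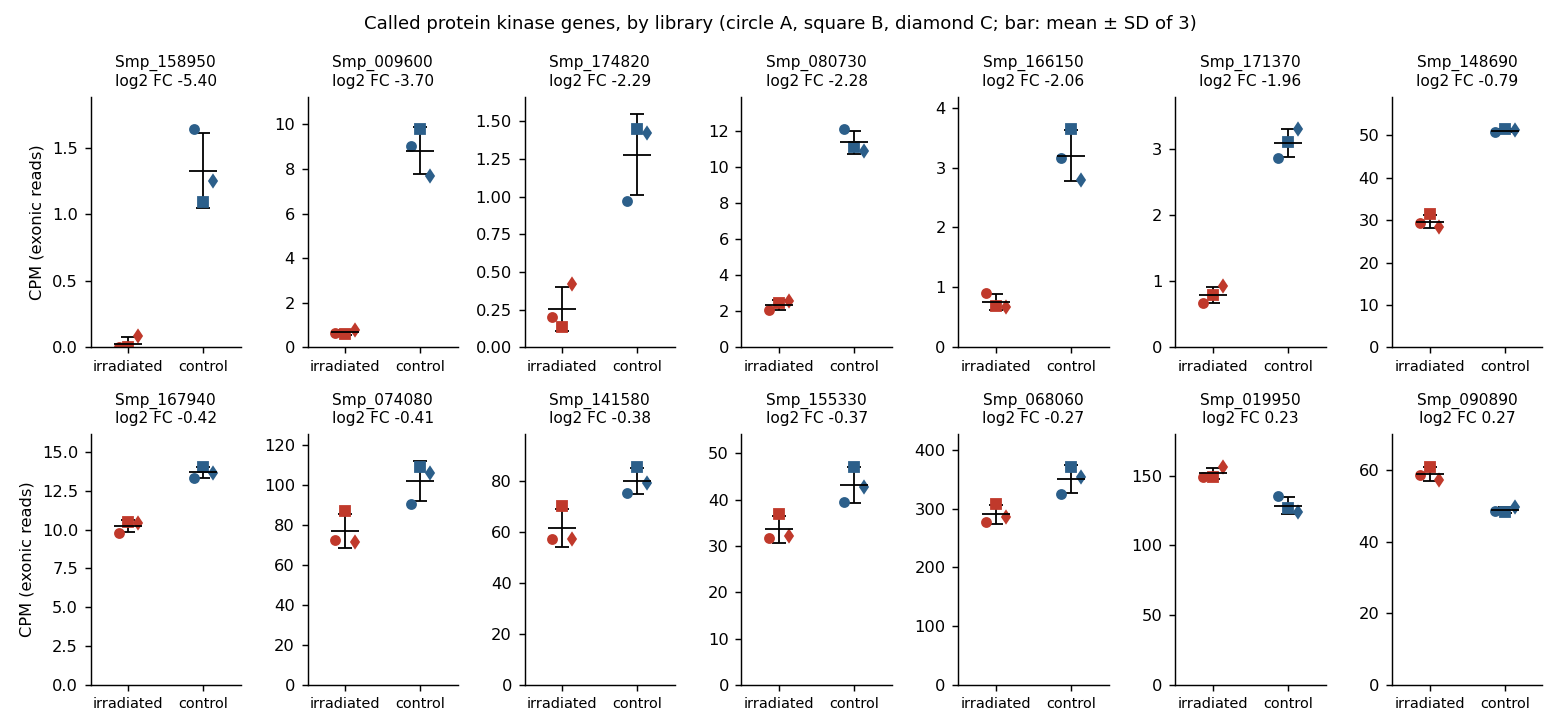
Level in CPM (exonic reads) of the 14 called genes in each library, with 1 panel per gene, irradiated libraries on the left in red and control libraries on the right in blue; each vertical axis starts at 0, and bars are the mean ± SD of 3 libraries. In every panel the groups do not overlap, and the first 6 panels hold the falls of 2-fold or more.

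Smp_009600, a serine/threonine kinase that the deposited annotation assigns to the cell cycle, was at a low level after irradiation. Its level was 0.641, 0.602 and 0.798 CPM in irradiated libraries A, B and C, against 9.01, 9.77 and 7.68 CPM in control libraries A, B and C. The irradiated libraries lay close together and far below the lowest control. The log2 fold change was -3.70 (SE 0.17; adjusted p = 2.2e-06 by the edgeR quasi-likelihood test), a 12.96-fold fall. Of 17 kinases annotated to the cell cycle, mitosis or cell division, all tested, 2 were called lower and none higher. Over all tested genes the shares were 2.49% lower and 0.619% higher. The median log2 fold change of the 17 was -0.05.

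The second was Smp_155330, annotated as a cyclin-dependent kinase that also phosphorylates the carboxy-terminal domain of RNA polymerase II. It had 31.6, 36.8 and 32.2 CPM in irradiated libraries, against 39.5, 47.1 and 42.8 CPM in controls. Its groups also did not overlap, but the gap was narrow, with a log2 change of -0.37 ± 0.08 (SE; edgeR adjusted p = 0.0484). None of the other 27 genes with cyclin-dependent kinase activity in their annotation was called (all tested genes: 2.49% lower and 0.619% higher).

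Cyclins and other partners of the kinases put these values in context. Of 11 cyclin genes, 10 were tested and 2 were called lower, beside 2.49% of all tested genes. The median log2 fold change of the 10 was -0.04. Cyclin B (Smp_082490), which activates the mitotic kinase in animals, averaged 0.338 ± 0.048 RPKM in irradiated and 7.21 ± 0.721 RPKM in control libraries (SD, n = 3 each). Cyclin B3 (Smp_047620) averaged 0.228 ± 0.018 RPKM in irradiated and 1.55 ± 0.092 RPKM in control libraries (SD, n = 3 each). Cyclin G (Smp_129360) had a log2 fold change of -0.06 and cyclin C (Smp_088250) of 0.00, neither of them called. A cdc25-type phosphatase (Smp_046810), which in other animals takes inhibitory phosphates off the mitotic kinase, had 21.0 ± 1.58 RPKM after irradiation and 21.1 ± 1.14 RPKM in controls (SD, n = 3 each).

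Smp_158950, a putative kinase annotated with serine/threonine kinase activity and apoptosis, had the fewest reads after irradiation among the called genes. Irradiated libraries A and B held no read of it and library C held 0.0840 CPM, against 1.64, 1.10 and 1.25 CPM in control libraries A, B and C. In reads that is 2 over the irradiated libraries and 91 over the controls, and a library with no read may hold up to 3, which is 0.101 CPM in irradiated A and 0.139 CPM in irradiated B. The irradiated level was 1.97% of the control level, with an exact 95% interval of 0.235% to 7.32% that covers counting error only. The fitted log2 change of -5.40 ± 0.62 (SE; edgeR adjusted p = 8.4e-04) depends on the small count that the fit adds, and was between -8.00 and -1.11 in other fits.

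A further 4 kinases fell about 4-fold to 5-fold, all named only serine/threonine kinase in the file. Smp_080730, annotated to the nucleus, had 2.06, 2.45 and 2.60 CPM in irradiated libraries, against 12.1, 11.1 and 10.9 CPM in controls. It was the best measured of the 4, with a log2 change of -2.28 ± 0.12 (SE; edgeR adjusted p = 6.1e-06). Smp_174820, annotated to the cytoplasm, had 0.202, 0.139 and 0.420 CPM in irradiated libraries, against 0.968, 1.45 and 1.42 CPM in controls. Its groups did not overlap, but its 19 and 84 reads in the irradiated and control groups left a wide error, with a log2 change of -2.29 ± 0.38 (SE; edgeR adjusted p = 0.00998). That call was lost without irradiated library A, control library B or control library C, with an adjusted p of at most 0.0612.

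Smp_166150, which binds magnesium by its annotation, had 0.911, 0.695 and 0.672 CPM in irradiated libraries, against 3.16, 3.64 and 2.79 CPM in controls. Its log2 change was -2.06 ± 0.20 (SE; edgeR adjusted p = 3.2e-04). Smp_171370 had 0.675, 0.787 and 0.924 CPM in irradiated libraries, against 2.87, 3.11 and 3.30 CPM in controls. With 93.2% of its reads placed uniquely, its log2 change was -1.96 ± 0.18 (SE; edgeR adjusted p = 2.6e-04). In both genes the highest irradiated library stayed far below the lowest control library.

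These 6 kinases were among the less abundant ones. In control worms their mean levels ran between 0.615 and 6.36 RPKM, ranks 206 to 244 of the 253 kinases, and in irradiated worms between 0.0132 and 1.34 RPKM. Among the 184 tested kinases with a control mean of at least 10 RPKM, log2 fold changes lay between -0.60 and 0.29, so none was 2-fold lower. All 6 came from the 61 below 10 RPKM. All tested genes showed a like split, with 4 of 6322 at or above 10 RPKM and 96 of 2563 below it called at least 2-fold lower. The stem cell markers, chosen with earlier results known and with a summed level given above, were lower as well. Their part in the falls of these 6 genes was not tested.

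**Figure D2:**
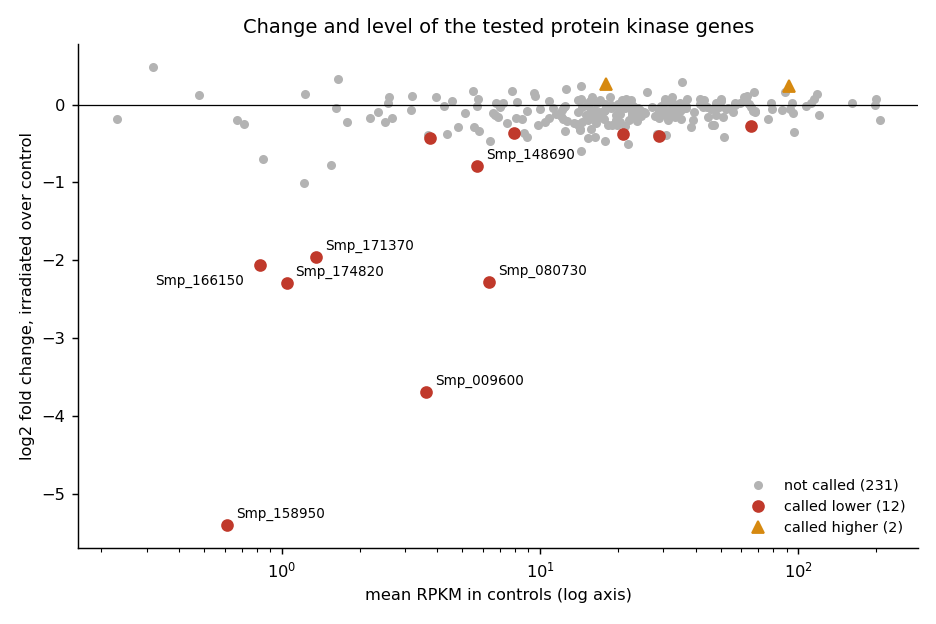
Log2 fold change of each tested protein kinase (irradiated over control, vertical axis) against its mean RPKM in control libraries (horizontal log axis). Red points are the 12 called lower, orange triangles the 2 called higher and grey points the 231 not called; the falls of 2-fold or more all lie below 10 RPKM.

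Smp_148690 stood between the 2 kinds of fall. It is a long serine/threonine kinase gene, with 7651 bases of exon, whose annotation names the thick filament of striated muscle, the spindle pole and calmodulin binding. Its level was 29.3, 31.5 and 28.3 CPM in irradiated libraries, against 50.8, 51.4 and 51.2 CPM in controls. The control libraries were nearly equal and the irradiated ones well below them, with a log2 change of -0.79 ± 0.06 (SE; edgeR adjusted p = 4.1e-05). The other kinase annotated to striated muscle contraction, the TAO1-A gene Smp_136340, named after its values were seen, had a log2 change of -0.24 and was not called. Among 18 tested genes of the muscle marker list 1 was called lower, and the list's summed level was 20069 to 21854 CPM in irradiated and 21206 to 22157 CPM in control libraries.

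The other 5 lower calls, with Smp_155330 above among them, were small. Smp_167940, named only kinase, averaged 10.2 ± 0.405 CPM in irradiated and 13.7 ± 0.3504 CPM in control libraries (SD, n = 3 each), a log2 change of -0.42 ± 0.08 (SE; edgeR adjusted p = 0.0181). Smp_074080, annotated with MAP kinase activity and regulation of transcription, averaged 77.0 ± 8.46 CPM after irradiation and 101.8 ± 10.06 CPM in controls (SD, n = 3 each), a log2 change of -0.41 ± 0.09 (SE; edgeR adjusted p = 0.0496). Smp_141580, a calmodulin-dependent protein kinase by annotation, averaged 61.6 ± 7.52 CPM after irradiation and 80.02 ± 5.20 CPM in controls (SD, n = 3 each), a log2 change of -0.38 ± 0.09 (SE; edgeR adjusted p = 0.0482). By annotation, 1 of 8 genes with calmodulin-dependent kinase activity and 1 of 28 tested with MAP kinase activity were called lower, beside 2.49% of all tested genes. Smp_068060, a cytoplasmic serine/threonine kinase at 55.1 ± 2.84 RPKM in irradiated and 65.5 ± 2.89 RPKM in control libraries (SD, n = 3 each), was the most abundant of the 12 kinases called lower, with a log2 change of -0.27 ± 0.06 (SE; edgeR adjusted p = 0.0482). Each of these 5 lost its call without irradiated A, without irradiated C, without control B or without control C.

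Only 2 genes were called higher. Smp_090890, a serine/threonine protein kinase annotated to bind manganese, had 58.7, 60.9 and 57.1 CPM in irradiated libraries, against 48.7, 48.2 and 49.7 CPM in controls. Every irradiated library was above every control, with a log2 change of 0.27 ± 0.05 (SE; edgeR adjusted p = 0.0196). The other, Smp_019950, is no kinase but a protein phosphatase 1 inhibitor whose action protein kinase C strengthens. It had 149.2, 149.5 and 156.5 CPM in irradiated libraries, against 135.2, 126.8 and 124.0 CPM in controls, a log2 change of 0.23 ± 0.05 (SE; edgeR adjusted p = 0.0371). Both calls were lost without irradiated A, irradiated C, control B or control C.

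Beyond the calls, the fold changes of the kinases centred slightly below 0. Their median log2 fold change was -0.08, against 0.00 over all tested genes, and their quartiles were -0.20 and 0.02. Of the 245, 175 (71.4%) had a fold change below 0, against 49.3% of all tested genes. At an unadjusted p under 0.05 by edgeR, 72 (29.4%) were lower, beside 13.3% of all tested genes, and 9 (3.67%) were higher, beside 8.27%. Every irradiated library was below every control library for 58 kinases (23.7%, beside 12.8% of all tested genes) and above for 17 (6.94%, beside 12.4%). In the authors' deposited table, with its unadjusted p under 0.05, 37 kinases (15.1%, beside 7.89%) were lower and 12 (4.9%, beside 7.79%) were higher. These are shares of genes whose levels vary together within a library, and no test was made of the set. Marker lists of abundant tissues shifted too, in both directions. Of 44 tested tegument markers 9 had a fold change below 0 and 2 were called higher, with summed levels of 16945 to 18242 CPM in irradiated and 15393 to 16374 CPM in control libraries. Of 12 tested gut markers 11 had a fold change below 0 and none was called, with summed levels of 18399 to 18965 CPM in irradiated and 18880 to 20429 CPM in control libraries. Their part in the shift of the kinases was not tested.

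The size of this shift differed between libraries. Against the mean of the controls, the median kinase stood at log2 differences of -0.11, -0.02 and -0.08 in irradiated libraries A, B and C, and at -0.04, 0.04 and 0.00 in control libraries A, B and C. Irradiated B thus lay within the range of the controls. Irradiated B was the highest of the irradiated libraries for 62.4% of kinases, beside 39.6% of all tested genes, and for 6 of the 6 kinases called lower by less than 2-fold, but for 0 of the 6 called lower by more. Without irradiated B, 49 kinases (20%) were called lower, beside 8.09% of all genes tested then. Without any other single library the count was 6 to 21, with 21 when control A was left out, beside 1.33% to 4.02% of all genes. The plot of the share called lower in each fit gives the kinases beside all tested genes, and the kinase share is the higher one in each fit shown.

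**Figure D3:**
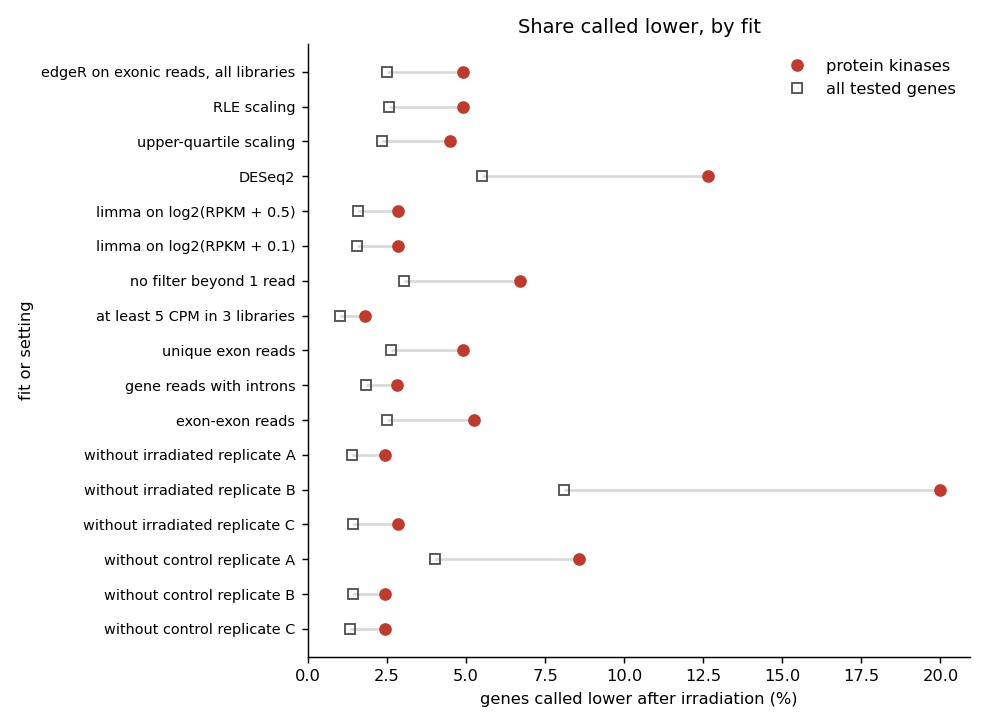
Percentage called lower after irradiation in the fits or settings drawn (vertical axis; the intronic fit and the fit with the replicate block are not drawn), for protein kinases (red circles) and all tested genes (open squares). Among those drawn, the kinase share runs between 1.81% and 20%, the all-gene share between 1.02% and 8.09%, and both are highest without irradiated library B.

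Median fold changes were lowest in the 2 classes of longest transcripts, among kinases and among all genes. The median exon length was 2082 bases for tested kinases and 1396 bases for all tested genes. For kinases the median log2 fold change was -0.05, -0.04, -0.05, -0.13 and -0.21 in 5 classes of rising exon length, and for all tested genes it was 0.04, 0.02, -0.02, -0.08 and -0.19. In the longest class, over 5000 bases and holding 18 kinases, 77.8% of kinases and 56.5% of all genes were lower at an unadjusted p under 0.05. In the shortest class, up to 1000 bases, the shares were 13.3% of 30 kinases and 5.72% of all genes. The 6 kinases with small falls, Smp_148690 among them, had exon lengths of 3004 to 7651 bases, and the 6 with falls of 2-fold or more had 1044 to 3309 bases. The part of exon length in the small falls was not tested.

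**Figure D4:**
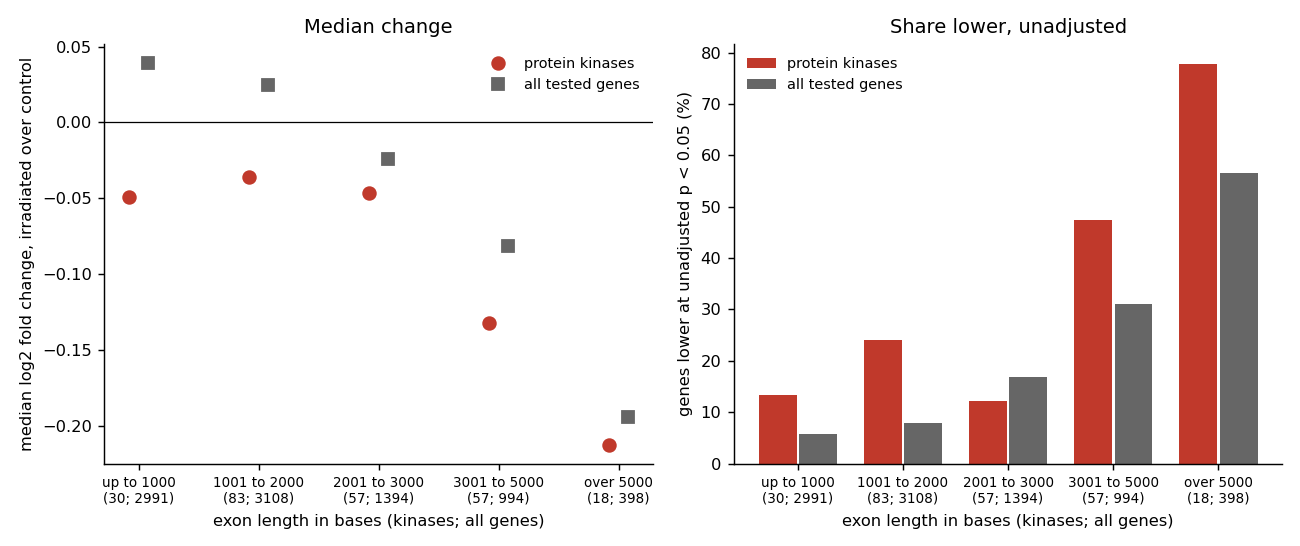
Median log2 fold change (left, irradiated over control) and percentage of genes lower at an unadjusted p under 0.05 (right) in 5 classes of exon length, for protein kinases (red) and all tested genes (grey); counts of kinases and of all genes stand under each class. Medians in the longest class are -0.21 for kinases and -0.19 for all genes.

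Reads from introns of the same genes, which can come from RNA not yet spliced, gave smaller changes in several of the called genes. Where these reads come from was not tested. This fit was added after seeing the data. No kinase of 230 tested was called lower on intronic reads, beside 0.252% of all genes tested on them, and 1 (0.435%) was called higher, beside 0.398%. At an unadjusted p under 0.05, 36 kinases were lower and 10 higher by edgeR. The share of all genes at that threshold is not given, so these counts show nothing particular to kinases. Smp_009600 kept 1045 intronic reads over the irradiated libraries, against 1791 over the controls, so that introns made up 95.3% of its reads after irradiation and 74.9% in controls. Its intronic log2 change was -0.75 ± 0.16 (SE; edgeR adjusted p = 0.0534), beside -3.70 on exons. Smp_166150 likewise had an intronic log2 fold change of -0.33 (SE 0.13), beside -2.06 on exons, and Smp_158950 one of -0.69 (SE 0.36), beside -5.40. In Smp_174820 and Smp_171370 intronic reads were lower by more, at -1.36 (SE 0.30) and -1.34 (SE 0.36), though neither was called. Smp_080730 had 5 and 6 intronic reads in the irradiated and control groups, too few to test. Reads inside an intron may also belong to another gene that lies there, and whether they do was not tested.

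**Figure D5:**
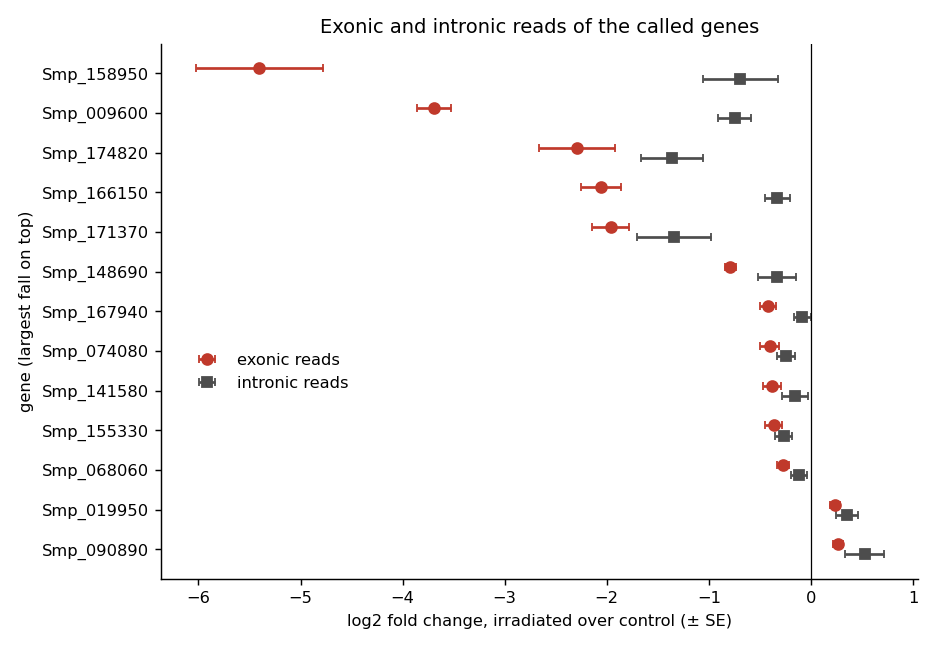
Log2 fold change ± SE (horizontal axis, irradiated over control) of exonic reads (red circles) and intronic reads (grey squares) for the 13 called genes with enough intronic reads, the largest fall on top. The exonic falls of Smp_158950, Smp_009600 and Smp_166150 (-5.40, -3.70 and -2.06) are larger than their intronic ones (-0.69, -0.75 and -0.33).

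The gene called higher on intronic reads was Smp_053560, a serine/threonine kinase, named after its values were seen. Its intronic log2 fold change was 1.05 (adjusted p = 0.0102, edgeR). On exons it had 82.0, 72.7 and 69.1 CPM in irradiated libraries, against 62.5, 59.5 and 61.0 CPM in controls. These groups did not overlap, but the exonic log2 fold change of 0.29 (SE 0.07) missed the threshold (adjusted p = 0.0571, edgeR).

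Tyrosine kinases, which include the receptors for growth factors, held no called gene, beside 2.49% of all tested genes called lower and 0.619% higher. The FGF receptor genes fgfrA and fgfrB are not in this count, and fgfrA was called lower. Of 38 by name 36 were tested, 27 had a fold change below 0 and their median log2 fold change was -0.11. The most abundant, Smp_082360, averaged 107.7 ± 6.14 RPKM in irradiated and 107.0 ± 2.28 RPKM in control libraries (SD, n = 3 each), and the 95% interval of its log2 fold change was -0.12 to 0.09. Smp_125360, next in level, had an interval of -0.14 to 0.04. The Src-family kinases TK3 and Tk5 had log2 fold changes of -0.09 and -0.10 and SmTK6 one of -0.14, with adjusted p between 0.254 and 0.381 by edgeR. TK4, a kinase of the Syk family, was at 45.2, 55.9 and 46.3 CPM in irradiated libraries, against 56.2, 68.96 and 59.97 CPM in controls, so its groups came within 1 CPM of each other (log2 fold change -0.33; adjusted p = 0.0953, edgeR). TK3, Tk5, SmTK6 and TK4 were chosen after their values were seen. By annotation 24 kinases are transmembrane receptor tyrosine kinases and 10 have ephrin receptor activity, again without the FGF receptor genes. None of the 22 and 10 tested was called.

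Of 5 genes named for the MAP kinase cascade or its STE20-type upstream kinases, none was called (all tested genes: 2.49% lower and 0.619% higher). Log2 fold changes of the 5 lay between -0.24 and 0.02. ERK2 averaged 61.5 ± 4.84 RPKM in irradiated and 59.5 ± 1.72 RPKM in control libraries (SD, n = 3 each), with a 95% interval of the log2 fold change of -0.10 to 0.14. ERK1, chosen after its values were seen, averaged 58.8 RPKM after irradiation and 57.0 RPKM in controls, with an interval of -0.10 to 0.15. The upstream kinase MEKK3 (Smp_005190) had an interval of -0.15 to 0.09. The STE20-type kinase Smp_161370, chosen after its values were seen, had a log2 fold change of -0.21 and an interval of -0.40 to -0.03, and a change of 2-fold lies outside the intervals of these 4. The type II TGF-beta receptor TGFbetaRII, a receptor serine/threonine kinase, had a log2 fold change of -0.07 (95% interval -0.22 to 0.08), and HIPK2, a nuclear kinase that binds homeodomain proteins, one of -0.16 (95% interval -0.29 to -0.03).

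Kinases named for cyclic nucleotides, protein kinase C or Akt made up a class in which none of 10 tested was called. The shares over all tested genes were 2.49% lower and 0.619% higher. The name search also put PRKAG2, a non-catalytic gamma subunit of AMP-activated kinase, in that class. A catalytic subunit of cAMP-dependent kinase (Smp_164380) averaged 53.5 ± 1.43 RPKM after irradiation and 50.2 ± 2.95 RPKM in controls (SD, n = 3 each), and atypical protein kinase C (aPKC) averaged 44.2 ± 1.29 and 44.4 ± 0.684 RPKM in irradiated and control libraries (SD, n = 3 each). Their log2 fold changes were 0.07 (95% interval -0.03 to 0.17) and -0.03 (95% interval -0.12 to 0.06). Smp_155940, a putative protein kinase C mu named after its values were seen, was lower by 2-fold without passing the test: it had 0.337, 0.324 and 0.378 CPM in irradiated libraries, against 0.707, 0.438 and 1.02 CPM in controls (log2 fold change -1.01; SE 0.37; adjusted p = 0.158, edgeR). Its groups did not overlap, but it had 73 reads in all, and the other 2 genes of that name, Smp_155950 and Smp_155960, had log2 fold changes of -0.22 and -0.23. A calcium/calmodulin-dependent kinase (Smp_065290) had an interval of -0.07 to 0.13, and a beta subunit of AMP-activated kinase (Smp_170160), 1 of 3 genes for that non-catalytic scaffold of the energy-sensing enzyme, one of -0.19 to -0.02 with an adjusted p of 0.194 by edgeR.

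Genes whose names carry words such as regulatory, activator, inhibitor or substrate, and so mark no catalytic chain, numbered 15, not counting the non-catalytic AMP-activated kinase subunits named above. Of these 14 were tested, with a median log2 fold change of -0.02 and Smp_019950 as the single call. Among all tested genes 2.49% were called lower and 0.619% higher. The type II-alpha regulatory subunit of cAMP-dependent kinase (Smp_079010), which holds the catalytic subunit inactive, averaged 166.8 ± 2.71 RPKM in irradiated and 161.1 ± 15.0 RPKM in control libraries (SD, n = 3 each). Smp_158910, named a regulatory subunit of cyclin-dependent kinases or a ribosome biogenesis protein, averaged 131.9 ± 4.05 RPKM in irradiated and 118.3 ± 10.8 RPKM in control libraries (SD, n = 3 each). Neither was called. Of 4 kinases named for cell division or cyclin dependence, none was called, and the 2 most abundant (Smp_054800 and Smp_162910) had log2 fold changes of 0.03 and -0.01.

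All 12 lower calls thus came from the 173 genes whose names fall in none of these classes. These held 169 of the 245 tested kinases, and of all tested genes 2.49% were called lower and 0.619% higher. By annotation the 12 include cyclin-dependent, MAP and calmodulin-dependent kinases, so this is a split by product name and not by kinase family. Of the 173 genes, 110 are named only serine/threonine kinase or serine/threonine protein kinase (107 tested, 9 lower and 1 higher). Another 50 are called protein kinase (49 tested, 1 lower) and 6 kinase (6 tested, 2 lower). The most abundant of all kinases were here too: Smp_099030 averaged 213.6 ± 3.74 RPKM in irradiated and 199.8 ± 11.4 RPKM in control libraries, and Smp_067810 averaged 202.2 ± 8.27 RPKM in irradiated and 198.9 ± 6.99 RPKM in control libraries (SD, n = 3 each), neither called. Another 19 kinases that were lower and 4 that were higher had an edgeR adjusted p of 0.05 to 0.1, with sizes of 0.16 to 0.78 on the log2 scale. The share of all genes in that range is not given, so these counts show nothing particular to kinases. The 8 untested kinases had 1 to 48 exonic reads over the 6 libraries, and none was called in a fit with no filter beyond 1 read, with adjusted p of 0.487 or more by edgeR.

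Genes named for protein phosphatases, which undo the work of kinases, were called lower in 2 of 68 tested. That share was near the 2.49% of all tested genes. This name match also takes proteins that only bind or regulate a phosphatase, such as the protein phosphatase 1 binding protein Smp_153700. A receptor protein tyrosine phosphatase (Smp_134180) averaged 14.6 ± 1.25 RPKM in irradiated and 18.7 ± 0.165 RPKM in control libraries (SD, n = 3 each), a log2 change of -0.39 (edgeR adjusted p = 0.0140). Protein phosphatase-7 (Smp_151410) averaged 1.01 ± 0.177 RPKM in irradiated and 1.67 ± 0.145 RPKM in control libraries (SD, n = 3 each), a log2 change of -0.76 (edgeR adjusted p = 0.0418). The median over the 68 was 0.00. None of the 5 genes for 14-3-3 proteins, which bind phosphorylated proteins, was called, and their median log2 fold change was 0.10.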

How the data were processed

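Members and gene lists were chosen with earlier results of these data known. Per the file headers, the authors deposited whole-number counts of exon, gene (introns included) and exon-exon reads per gene and library, RPKM values, an exon length, and an unadjusted p-value. The authors' signed fold change, a score because a fall is written as a negative fold, was deposited beside it. The sources used here do not name the aligner, counting program, genome build or strand use, so antisense genes cannot be told apart and no coordinates are given. Libraries were grouped by their labels as irradiated or control.

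Total exon reads of all rows with exons were tested with edgeR 4.0.16 (R 4.3.3; filterByExpr, TMM scaling, quasi-likelihood test, Benjamini-Hochberg over 8885 genes). Intronic reads are gene reads minus exon reads. Their fit, the classes by annotation term and exon length and the split at 10 RPKM were added after seeing the data. SE is the size of the log2 fold change fitted with no added count, over the root of F. The printed log2 fold change includes a small added count. Alternatives used DESeq2 1.42.0, limma 3.58.1 on log2(RPKM + 0.5) and log2(RPKM + 0.1), other scalings, filters and reads, and each library left out; the scripts were tested on simulated data.

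Named are all called members, the 2 most abundant tested members of each class of product names, and Smp_158950; others are stated as chosen later. All reads were unique for 228 of 253 members. Intervals cover counting error or library spread only. Those of log2 fold changes take a normal multiple of the SE, which is too narrow for 3 libraries per group.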

Additional observations from a re-analysis of the deposited data

How the results depend on the processing

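The 12 lower calls became 31 with DESeq2, beside 5.51% of all tested genes called lower in that fit. They became 7 with limma on log2(RPKM + 0.5) and with a pseudocount of 0.1, beside 1.58% and 1.56%. Among genes with at least 5 CPM in 3 libraries they became 4, beside 1.02%. On gene reads with introns they became 7, beside 1.845%, and with no filter beyond 1 read 17, beside 3.02%. On exon-exon reads they were 12, of which 8 were shared, beside 2.51%. The 2 higher calls became 4 with upper-quartile scaling, beside 0.889% of all tested genes called higher in that fit. They became 1 with either limma fit, beside 0.439% and 0.428%, and 1 with the 5 CPM filter, beside 0.343%. On exon-exon reads there was 1, which was neither of the 2, beside 0.592%. They became 3 with DESeq2, with no filter and on gene reads, beside 1.43%, 0.741% and 0.478%. With the replicate block 56 were lower and 6 higher, beside 9.58% and 3.12% of all tested genes. That fit was made although the letters were not found to pair the samples (same-letter correlations of deviations 0.0417, 0.179 and -0.103). Leaving out each library in turn gave 6 to 49 lower and 0 to 3 higher calls. The shares of all genes tested then were 1.33% to 8.09% lower and 0.179% to 1.44% higher. The median log2 fold change of the kinases was -0.11 to -0.05 in these fits. The calls of Smp_158950, Smp_009600, Smp_080730, Smp_166150, Smp_171370 and Smp_148690 were kept in every alternative fit that tested them, and 0 of 14 calls reversed. The intronic fit is not counted here, and it called none of these 14 genes. Smp_174820 and the other 7 were lost in 3 to 9 of up to 17 fits, and the cause was not tested. Of 16 named genes without a call, 2 of 271 values passed the threshold. Depth limits the 8 kinases with 1 to 48 reads and the folds of Smp_158950 and Smp_174820.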
